A study of Mus musculus with 18 samples.

Results

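The genes described here are 8 genes of cholesterol and oxysterol metabolism, measured by RNA-seq in mouse knee cartilage after rupture of the anterior cruciate ligament (ACL). They were chosen by name, with earlier results of these data known. Ch25h and Cyp7b1 code for enzymes that make and consume oxysterols, Rora codes for a nuclear receptor, Hmgcs1 and Sqle code for enzymes of cholesterol synthesis, and Insig1, Srebf1 and Srebf2 code for the machinery that senses sterols. All 8 were found among the 49184 genes that the transcript estimates were summed to, and all 8 passed the filter on low counts in every comparison.

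Cartilage caps of the femoral condyle came from 12-week-old male wild-type mice of the C57bl6 strain, and no transgene or deletion is carried by any group. A single mechanical load ruptured the ACL of the right knee, and the injured right knee and the contralateral left knee were collected at day 1 or day 7. Mice that were never loaded gave the naive libraries, which are labelled day 7, so that comparisons of day 1 knees with naive ones also differ in day. There were 6 naive libraries and 3 each from day 1 contralateral, day 1 injured, day 7 contralateral and day 7 injured knees, 18 in all. Each library pooled cartilage of several mice: the series text gives 4 mice for each, whereas the study's methods show 2 at day 1, 4 in the injured and contralateral libraries at day 7, and 2 knees in each naive library, with left and right knees of the same naive mice in separate libraries. Injured and contralateral libraries can therefore hold knees of the same mice. Which libraries do so is not labelled, and the 6 naive libraries, with 2 knees of each mouse in different libraries, are not 6 independent pools, although the tests and the comparisons among naive values treat them so. Here p-values measure the spread between pools and not between animals. Total estimated counts ranged from 16074762 to 41794005 for each library, with a median of 25465706.

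Cells make cholesterol from acetyl-CoA by a long series of enzymes, most of whose genes are switched on by the sterol regulatory element-binding proteins (SREBPs) encoded by Srebf1 and Srebf2. When sterols are plentiful, INSIG proteins hold SREBPs in the endoplasmic reticulum, and when sterols are scarce the SREBPs are cut and enter the nucleus. Cholesterol 25-hydroxylase, encoded by Ch25h, turns cholesterol into 25-hydroxycholesterol, and the oxysterol 7α-hydroxylase encoded by Cyp7b1 converts it further. An axis of CH25H, CYP7B1 and the receptor RORα has been linked to matrix breakdown in osteoarthritic cartilage in mice.

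The proximal promoters of 6 of the 8 genes were matched in the RefSeq promoter table (GRCm38.p6, 250 bases before to 50 after each start), giving 8 promoters because Srebf1 had 3. Cyp7b1 and Sqle had no entry there, so their promoters were not searched. The 8 promoters were searched on both strands for the sterol regulatory element TCACNCCAC, the ROR element TAGGTCA and the CCAAT box. These motifs do not overlap each other in them. Of all 32851 promoters of the table, 1.24% held the first, 2.61% the second and 37.4% the third. The Hmgcs1 promoter was the only member promoter with the sterol regulatory element, at position -137 from the start, and it also held CCAAT boxes, 3 before the start and 1 after it. The Insig1 and Srebf2 promoters and 2 of the 3 Srebf1 promoters each held 1 CCAAT box, the Rora promoter held 1 only after its start, and the Ch25h promoter held none of the 3 motifs, nor did any member promoter hold the ROR element. The 250 bases before the start are shown for the synthesis gene Hmgcs1, the sterol sensor Insig1 and Ch25h. They run 5′ to 3′ on the strand of the gene, with motif matches in capitals. They lie at chr13:119690101-119690350 (+), chr5:28071162-28071411 (+) and chr19:34475149-34475398 (-).
Hmgcs1: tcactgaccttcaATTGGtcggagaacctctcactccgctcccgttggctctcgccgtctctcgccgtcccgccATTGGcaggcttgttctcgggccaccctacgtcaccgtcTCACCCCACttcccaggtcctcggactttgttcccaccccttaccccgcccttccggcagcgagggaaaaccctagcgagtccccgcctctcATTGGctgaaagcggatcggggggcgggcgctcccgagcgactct
Insig1: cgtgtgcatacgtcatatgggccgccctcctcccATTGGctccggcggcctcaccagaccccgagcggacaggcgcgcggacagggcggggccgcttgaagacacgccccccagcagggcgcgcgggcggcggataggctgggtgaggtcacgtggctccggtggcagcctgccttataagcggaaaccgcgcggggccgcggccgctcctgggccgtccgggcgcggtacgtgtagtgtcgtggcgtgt
Ch25h: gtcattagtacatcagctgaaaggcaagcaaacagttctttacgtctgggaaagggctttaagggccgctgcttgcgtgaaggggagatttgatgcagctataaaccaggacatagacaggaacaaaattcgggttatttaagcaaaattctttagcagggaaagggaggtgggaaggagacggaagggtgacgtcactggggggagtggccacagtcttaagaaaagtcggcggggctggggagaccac
A match to these letters describes the sequence and does not show that a factor is bound there.

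The tissue was checked against its markers before any comparison. All 14 chondrocyte markers had counts in all 18 libraries, and the most abundant was Col2a1, the main collagen of cartilage. Their summed level was 6759 ± 1427 normalised counts per 1e6 reads (CPM, SD, n = 6) in naive libraries. The 9 erythroid markers found in the annotation summed to 34649 ± 3950 CPM in the same libraries and the 10 neutrophil markers reached between 8401 and 17081 CPM over all 18. RNA of blood, marrow, muscle and fat cells was thus measured together with that of chondrocytes, and the levels below were not assigned to a cell type.

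Day 7 contralateral replicate 1 stood apart from the other 17 libraries. Its 10 most abundant genes took 42.5% of its counts, against 16.6% to 29.8% elsewhere, and its erythroid sum was 64749 CPM. Its normalization factor of 0.696 was the lowest of all, and its Col2a1 level of 10448 CPM was the highest. For the 8 genes, injured knees at day 7 are set against contralateral ones both with and without it, and calls of other pathway genes in that comparison that were lost or gained without it are named.

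Levels were compared between genes per transcript length, in TPM, the share of transcripts scaled to 1e6. The SREBP genes were the most abundant of the 8, with a mean of 14.7 TPM over the 18 libraries for both Srebf1 and Srebf2. Hmgcs1 followed with 9.45 TPM and Insig1 with 9.04 TPM. Rora averaged 4.00 TPM and Sqle 3.84 TPM. The oxysterol enzymes were far lower, at 0.421 TPM for Ch25h and 0.303 TPM for Cyp7b1. Across libraries each gene was compared by CPM after TMM normalization, because TPM values are not corrected for the few genes that dominate a library.

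**Figure D1:**
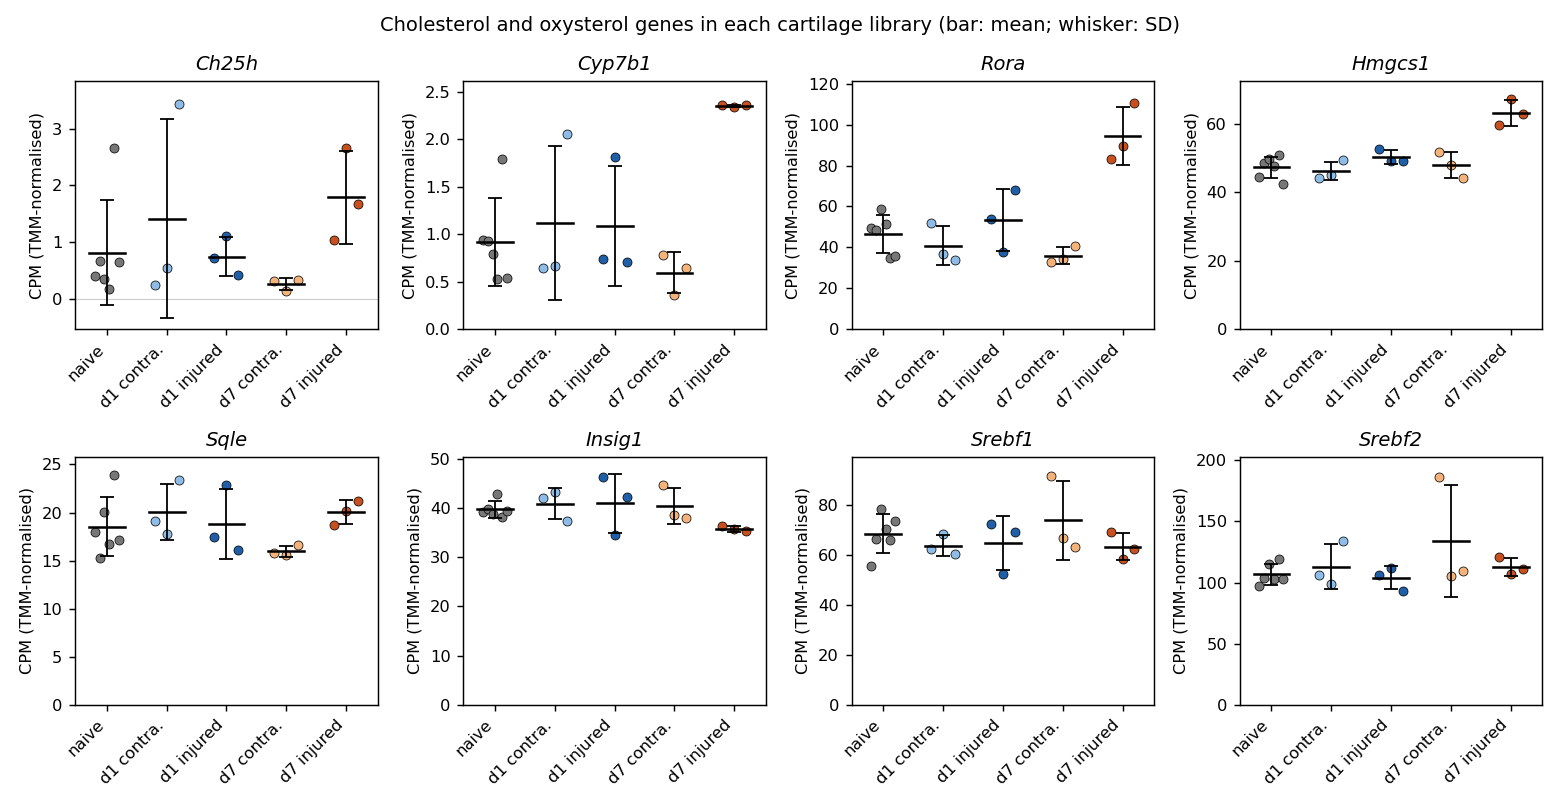
Level of each of the 8 genes in every library, in TMM-normalised CPM on linear axes that include 0, with points for libraries, bars for group means and whiskers for SD (n = 6 naive, n = 3 in the other groups). Rora, Cyp7b1 and Hmgcs1 are higher in the 3 day 7 injured libraries than in all others, whereas Ch25h scatters in the naive and day 1 contralateral groups and Insig1 is slightly lower at day 7 after injury than in naive libraries.

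At day 7 after injury, 2 of the 8 genes had risen against naive cartilage, Rora and Cyp7b1, and none had fallen. Rora rose 2.06-fold and Cyp7b1 2.61-fold. Hmgcs1 was 1.35-fold higher, which passed the false discovery rate (FDR) but not the fold limit. The other 5 genes did not pass the test, and their log2 fold changes ran from -0.13 for Insig1 to 1.12 for Ch25h. Calls required both an edgeR quasi-likelihood FDR no higher than 0.05 and a 1.5-fold difference or more, and 16.6% of the 21129 genes tested in this comparison met both, 2207 higher and 1291 lower. The 2 of 8 genes called here are to be read against that share. With the FDR alone, 3 of the 8 passed, against 29.8% of all genes. After TMM normalization, values of the 9 libraries did not overlap between groups for 4 of the 8 genes, 3 higher and 1 lower, against 28.2% of all genes.

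Cyp7b1 (ENSMUSG00000039519, chr3:18071950-18243338, minus strand, GRCm38) is the hydroxylase that acts on 25-hydroxycholesterol and 27-hydroxycholesterol. Its level was 2.36, 2.34 and 2.36 CPM in the day 7 injured libraries, and in the naive libraries the lowest was 0.525, the median 0.861 and the highest 1.79 CPM. After TMM normalization the 3 injured values lay almost on top of each other and above every naive value. In TPM, however, they were 0.422, 0.494 and 0.546 beside 0.490 in naive replicate 5, and per 1e6 counts assigned to genes they were 1.978, 1.942 and 2.007 beside 2.003 there, so that on both scales the groups overlapped through that library. They rest on few reads, with estimated counts of 52, 37 and 51. Its log2 fold change was 1.38 ± 0.434 (SE, edgeR, FDR = 0.0261). That call was lost when any of the 3 day 7 injured libraries was left out, with FDR from 0.0633 to 0.0733 and a log2 fold change of 1.38 each time, and without naive replicate 6 the FDR was 0.0510.

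Against the day 7 contralateral knees, Cyp7b1 was 4.05-fold higher (log2 fold change 2.02 ± 0.542 SE, edgeR FDR = 0.0142). The contralateral values were 0.779, 0.357 and 0.642 CPM, all below the injured ones. Without day 7 contralateral replicate 1 the log2 fold change was 2.22 with an FDR of 0.0215, and without replicate 2 it was 1.74 with an FDR of 0.0602.

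Ch25h (ENSMUSG00000050370, chr19:34473778-34475164, minus strand), the 25-hydroxylase and an interferon-inducible gene in macrophages, had 1.04, 2.66 and 1.67 CPM in the day 7 injured libraries. In naive libraries its lowest value was 0.175, its median 0.518 and its highest 2.67 CPM. The groups overlapped only because of naive replicate 5, which reached the level of the highest injured library. The log2 fold change of 1.12 ± 0.781 (SE) did not pass the test (edgeR FDR = 0.297), and without naive replicate 5 it was 2.04 with an FDR of 0.0399. In the contralateral knees at day 7, Ch25h was at 0.312, 0.134 and 0.338 CPM, from estimated counts of 4, 3 and 10. All 3 injured values were higher, and the log2 fold change of 2.74 ± 1.03 (SE) had an edgeR FDR of 0.0761. That call depended on the test: DESeq2 gave 2.77 with an FDR of 0.0154, and edgeR fitted to these 2 groups alone gave an FDR of 0.0120. Without day 7 contralateral replicate 1 the log2 fold change was 2.84 with an FDR of 0.127.

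Rora (ENSMUSG00000032238, chr9:68653786-69388246, plus strand) codes for the nuclear receptor RORα, which acts on chondrocyte, circadian and lipid genes. It was at 83.1, 89.7 and 110.5 CPM in the day 7 injured libraries, against a lowest of 34.9, a median of 48.9 and a highest of 58.7 CPM in naive ones. Every injured library lay above every naive library. Rora's log2 fold change was 1.04 ± 0.189 (SE, edgeR FDR = 7.2e-04), and it stayed between 0.92 and 1.13 when each library was left out in turn. Contralateral knees had 32.8, 34.1 and 40.7 CPM at day 7, below all injured values. The log2 fold change against them was 1.39 ± 0.226 (SE, edgeR FDR = 2.6e-04), and 1.36 without day 7 contralateral replicate 1. In TPM, with no correction for composition, Rora had 3.66, 5.07 and 6.96 in the day 7 injured libraries and from 2.49 to 5.04 in naive libraries, so that on that scale the groups overlapped.

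Hmgcs1 (ENSMUSG00000093930, chr13:119690379-119708260, plus strand), the cytosolic HMG-CoA synthase early in the pathway, had 59.8, 67.3 and 62.9 CPM in day 7 injured libraries. In naive libraries the lowest was 42.6, the median 48.2 and the highest 50.9 CPM. After TMM normalization the injured values were above all 15 others of the series, in a narrow band. Per 1e6 counts assigned to genes they were 50.1, 55.7 and 53.5. On that scale they lay below 56.9 in naive replicate 5 and below 56.9, 56.8 and 57.0 in the day 1 injured libraries. The log2 fold change was 0.44 ± 0.0715 (SE, edgeR FDR = 3.0e-04) against naive and 0.40 ± 0.0894 (SE, edgeR FDR = 0.0042) against day 7 contralateral knees, the latter 0.48 (FDR = 0.0018) without contralateral replicate 1. Both were under the limit of 1.5-fold. When libraries were scaled by their totals alone, the log2 fold change against naive was 0.12 with an FDR of 0.195.

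Sqle (ENSMUSG00000022351, chr15:59315077-59331192, plus strand), the squalene epoxidase later in the same pathway, had 18.8, 20.2 and 21.2 CPM after injury at day 7. In naive libraries its lowest value was 15.3, its median 17.6 and its highest 23.9 CPM. The groups overlapped and the log2 fold change of 0.13 ± 0.145 (SE) did not pass the test (edgeR FDR = 0.534). Against the day 7 contralateral knees, at 15.7, 15.6 and 16.6 CPM, all injured values were higher, and the log2 fold change was 0.33 ± 0.161 (SE, edgeR FDR = 0.178), and 0.34 (FDR = 0.242) without contralateral replicate 1.

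Insig1 (ENSMUSG00000045294, chr5:28071363-28078662, plus strand), the sterol-regulated SREBP retention protein, was at 36.3, 35.7 and 35.2 CPM in day 7 injured libraries. Its naive values had a lowest of 38.1, a median of 39.2 and a highest of 42.8 CPM. After TMM normalization every injured value lay below every naive value, by a small margin. The log2 fold change of -0.13 ± 0.0826 (SE) did not pass the test (edgeR FDR = 0.240), nor did that of -0.17 ± 0.103 (SE) against day 7 contralateral knees (edgeR FDR = 0.266). Without contralateral replicate 1 the latter was -0.08 (FDR = 0.683). Per 1e6 counts assigned to genes, Insig1 had 30.4, 29.6 and 29.9 in day 7 injured libraries and from 38.3 to 43.3 in naive ones. The log2 fold change with library totals alone was -0.45 (edgeR FDR = 0.0011), past the FDR but under the fold limit, so that the size of the difference depended on the scaling.

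Srebf1 (ENSMUSG00000020538, chr11:60199089-60222581, minus strand) codes for SREBP1, which acts mainly on fatty acid genes. Its day 7 injured values were 69.1, 58.4 and 62.3 CPM, and its naive values had a lowest of 55.6, a median of 68.5 and a highest of 78.6 CPM. After TMM normalization these ranges overlapped, and the log2 fold change was -0.10 ± 0.112 (SE, edgeR FDR = 0.547). Per 1e6 counts assigned to genes they did not, with 57.9, 48.4 and 53.0 in day 7 injured libraries and from 59.4 to 78.0 in naive ones, and the log2 fold change with library totals alone was -0.41 (edgeR FDR = 0.0075), again under the fold limit. Srebf2 (ENSMUSG00000022463, chr15:82147181-82205379, plus strand) codes for SREBP2, which acts mainly on cholesterol genes. It had 121, 107 and 111 CPM in day 7 injured libraries, with a lowest of 96.9, a median of 102.99 and a highest of 119.5 CPM in naive ones. Here too the groups overlapped, and the log2 fold change was 0.10 ± 0.101 (SE, edgeR FDR = 0.488). With library totals alone it was -0.22 (edgeR FDR = 0.0975), and that of Sqle was -0.19 (edgeR FDR = 0.333), so that neither direction held across the scalings. The median of all genes moved down with library totals as well, from -0.04 to -0.35.

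After TMM normalization the highest level of both SREBP genes was in day 7 contralateral replicate 1, at 186 CPM for Srebf2 and 91.7 CPM for Srebf1, but that rank came with its low normalization factor. Per 1e6 counts assigned to genes, with no such factor, it had 129.7 of Srebf2 and 63.8 of Srebf1, below the highest libraries at 140.1 and 80.2, and in TPM it was the lowest of the series for both, at 8.11 and 6.01. The other 2 libraries of that group had 105 and 109.6 CPM of Srebf2, within the naive range. Against these contralateral knees the log2 fold change of Srebf2 at day 7 was -0.24 ± 0.173 (SE, edgeR FDR = 0.368) with that library and 0.09 (FDR = 0.689) without it. For Srebf1 it was -0.22 ± 0.151 (SE, edgeR FDR = 0.348) with it and -0.01 (FDR = 0.971) without.

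Against the day 7 contralateral knees as a whole, edgeR called the same 2 genes, Rora and Cyp7b1, both higher, where 12.6% of 21262 genes were called and 18.6% passed the FDR alone. Hmgcs1 was the third gene of the 8 past the FDR. The injured group entered both comparisons, so the naive and contralateral results are not independent of each other.

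**Figure D2:**
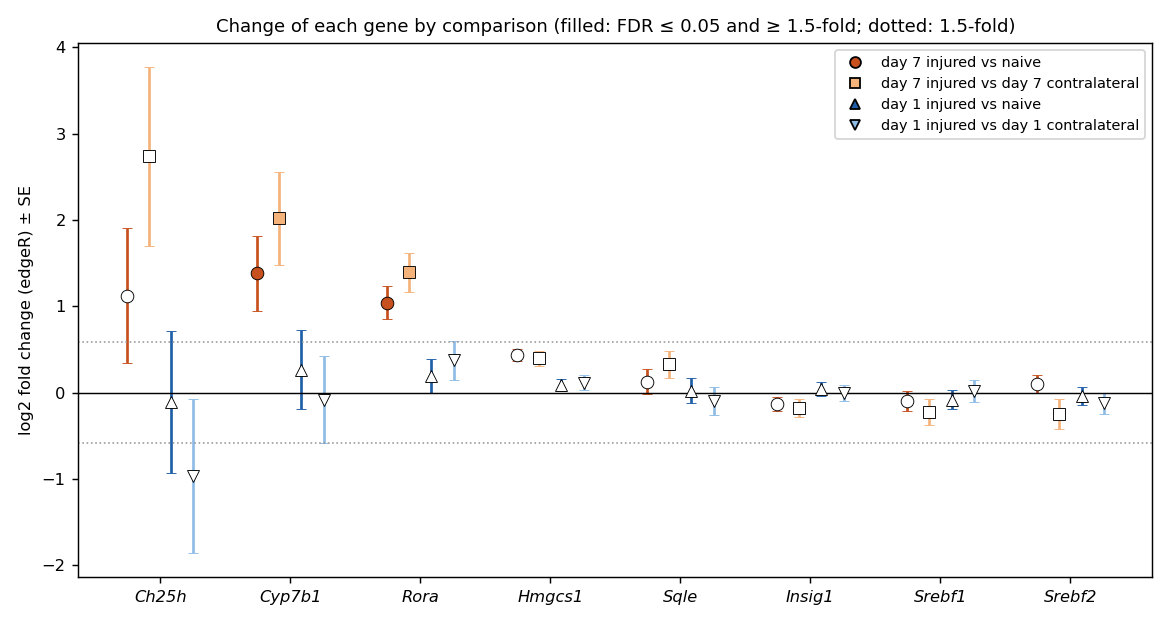
Log2 fold change of each gene in 4 comparisons, with whiskers for the SE, filled symbols for genes past both limits (FDR 0.05 and 1.5-fold), and dotted lines at 1.5-fold. Filled symbols are found for Cyp7b1 and Rora at day 7, and for no gene at day 1.

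At day 1 none of the 8 genes passed the test in the injured knee, and no gene of the lists below was called. Log2 fold changes against naive ranged from -0.11 for Ch25h to 0.27 for Cyp7b1, with FDR of 0.987 or more in edgeR. Against the day 1 contralateral knees they ranged from -0.96 for Ch25h to 0.38 for Rora, with FDR of 0.787 or more. No member had an unadjusted p under 0.05 in either comparison. edgeR called 0% of genes in both, although 959 genes against naive and 1383 against contralateral had an unadjusted p under 0.05. limma-voom called 0 in both and DESeq2 called 15 against naive and 0 against contralateral, none of them among the 8.

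The day 1 libraries were uneven for the oxysterol enzymes. Ch25h had 0.711, 1.11 and 0.414 CPM in day 1 injured libraries and 0.251, 0.552 and 3.43 CPM in day 1 contralateral libraries, where replicate 3 gave the highest value of the series. Cyp7b1 had 0.743, 1.81 and 0.705 CPM in injured and 0.644, 0.662 and 2.06 CPM in contralateral libraries. Within each of these groups the same library was highest for both genes, and its margin over the other 2 was smallest for Ch25h in injured knees.

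Those libraries, with naive replicate 5, were singled out after their values were seen, and no average was taken over them. Naive replicate 5, day 1 contralateral replicate 3 and day 1 injured replicate 2 had 23.9, 23.4 and 22.9 CPM of Sqle, the 3 highest values of that gene. Their summed adipocyte markers were 417, 422 and 342 CPM, the lowest of their own groups. Their summed skeletal muscle markers of 3102, 4462 and 3417 CPM were also the lowest of their groups. Their ranks on the other marker lists are not given here. Rora in these libraries was at 34.9, 33.9 and 37.7 CPM, again the lowest of each group. In day 7 injured libraries the adipocyte markers were low as well, at 375, 431 and 307 CPM, but Rora was at its highest. Whether the makeup of the dissected tissue had a part in these levels was not tested.

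Between day 1 and day 7 after injury, Rora alone was called higher. Its values at day 1 were 54.1, 37.7 and 67.9 CPM, all below those at day 7. The log2 fold change was 0.85 ± 0.226 (SE, edgeR FDR = 0.0139), in a comparison with 15.4% of genes called. That call was lost without day 1 injured replicate 2 (0.64, FDR = 0.0632) and without day 7 injured replicate 3 (0.72, FDR = 0.0602). Hmgcs1, at 52.9, 49.1 and 49.2 CPM at day 1, had a log2 fold change of 0.35 ± 0.0837 (SE, edgeR FDR = 0.0077), under the fold limit. That rise was seen only after TMM normalization. Per 1e6 counts assigned to genes, Hmgcs1 had 56.9, 56.8 and 57.0 at day 1 and 50.1, 55.7 and 53.5 at day 7. In TPM it had 11.8, 12.6 and 16.1 at day 1 and 7.32, 9.88 and 10.2 at day 7. Cyp7b1 did not pass the test (1.11 ± 0.503 SE, edgeR FDR = 0.118), nor did the other 5 genes. These calls also depended on the scaling. With library totals alone Rora was not called between the days, whereas Insig1 was called lower.

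The contralateral knees were compared with naive ones to see whether the uninjured limb differed. None of the 8 genes was called at day 7 or at day 1, and edgeR called 0% of all genes in each, with 3220 and 554 genes at an unadjusted p under 0.05. limma-voom called 0 genes in both, and DESeq2 called 8 at day 7 and 2 at day 1, none of them among the 8. Log2 fold changes at day 7 ran from -1.63 ± 0.979 (SE) for Ch25h to 0.32 ± 0.148 (SE) for Srebf2, with FDR of 0.317 or more in edgeR. The Srebf2 value, the only one of the 8 with an unadjusted p under 0.05, was 0.01 without day 7 contralateral replicate 1. At day 1 they ran from -0.18 for Rora to 0.86 for Ch25h, all with an FDR of 0.99975 in edgeR.

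The injury effect at day 7, set against the contralateral limb of the same time, was then tested against that at day 1. edgeR called none of the 8 genes and 3.77% of all genes. The difference in log2 fold change was 1.01 ± 0.314 (SE, FDR = 0.0857) for Rora, 2.09 ± 0.731 (SE, FDR = 0.134) for Cyp7b1 and 3.69 ± 1.34 (SE, FDR = 0.153) for Ch25h. DESeq2 called 2 of the 8, Rora (FDR = 0.0415) and Ch25h (FDR = 0.0435), and 5.36% of all genes. Without day 7 contralateral replicate 1 edgeR called none of the 8. By edgeR, then, no difference in effect between the days was shown for the 8 genes, even though 2 of them were called at day 7 and none at day 1.

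Ordered by mean CPM over the 5 groups, the day 7 injured group came first for Ch25h, Cyp7b1, Rora and Hmgcs1 and last for Insig1 and Srebf1. After TMM normalization it was apart from the next group for Cyp7b1, Rora and Hmgcs1, and the other neighbours in the order overlapped. For Insig1 it was apart from the naive group just above it, and for Ch25h the only gap was between day 1 injured and the last group, day 7 contralateral. All neighbours overlapped for Sqle, Srebf1 and Srebf2. Per 1e6 counts assigned to genes, the day 7 injured group was not apart from the others for Cyp7b1, Rora or Hmgcs1. Day 1 injured replicate 2 had 2.09 of Cyp7b1, above every day 7 injured library. Day 1 injured replicate 3 had 78.8 of Rora, above 69.6 and 74.3 in day 7 injured replicates 1 and 2. For Hmgcs1 each day 1 injured library was above every day 7 injured one.

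Most of the 8 genes were measured through 1 main transcript. Ch25h and Cyp7b1 each had a single annotated transcript. Insig1-201 carried 92.6%, Sqle-201 89.8%, Hmgcs1-201 78.6% and Srebf2-201 72.1% of the mean TPM of their genes. Rora was split between Rora-201 with 58.2% and Rora-202 with 31.5%. The share of Rora-201 was 63.4 ± 5.55% (SD, n = 3) in day 7 injured and 56.0 ± 4.99% (SD, n = 6) in naive libraries, and their ranges overlapped. Srebf1 was the most divided, with 38.4% in Srebf1-201 and 21.9% in Srebf1-210, a transcript annotated as non-coding. With protein-coding transcripts alone, the day 7 log2 fold change against naive was 0.93 for Rora, 1.26 for Cyp7b1 and 0.32 for Hmgcs1.

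The genes whose pattern was most like that of the 2 called genes were found over the 18 libraries among 15988 genes with a mean of at least 1 CPM. The measure was the root mean square difference of log2(CPM + 0.5), each gene centred on its own mean. For Rora the nearest were Sobp at 0.108, Cped1 at 0.128 and Ank2 at 0.130. For Cyp7b1 they were Csgalnact1, an enzyme of chondroitin sulfate synthesis, at 0.177, Steap1 at 0.183 and Fads3 at 0.228. The libraries share depth, composition and pooling, so these are descriptions.

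Lists of related genes placed the 8 in their pathways, and they include the members that belong to them. At day 7 against naive, none of the 20 cholesterol synthesis enzymes was called. With the FDR alone 3 of 20 passed, beside 29.8% of all genes, all higher, among them Hmgcs1 and Mvk, the mevalonate kinase, named after its values were seen. Mvk was at 8.62 ± 0.181 CPM (SD, n = 3) against 6.54 ± 0.636 (SD, n = 6), a log2 fold change of 0.42 ± 0.0997 (SE, FDR = 0.0057). The other 17, which include Sqle and the most abundant of the list by TPM, Fdps (0.02 ± 0.146, FDR = 0.916), did not pass. The list's median log2 fold change was 0.07, beside -0.04 for all genes.

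Of 7 genes of SREBP processing none was called, and the median log2 fold change was 0.19. Past the FDR alone were Mbtps1 and Mbtps2, the proteases that cut SREBPs, and Insig2, at 0.45, 0.33 and 0.38, 3 of 7 beside 29.8% of all genes. Srebf1, the most abundant of the list by TPM, and Srebf2 were not among them.

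The 13 fatty acid synthesis targets of SREBP split in both directions, none called, with a median of -0.15. Scd2, Fads1, Elovl5, Acsl3 and Fads2, 5 of 13 beside the same 29.8%, passed the FDR alone, all higher, by log2 fold changes of 0.25 to 0.53. Scd1, the most abundant gene of the list by TPM and a desaturase prominent in adipocytes, had a log2 fold change of -1.26 ± 0.583 (SE, FDR = 0.117). Its level was 332 ± 50.04 CPM (SD, n = 3) after injury and 804 ± 483 (SD, n = 6) in naive libraries, whose lowest value was 241. Against the contralateral knees Acsl3 was called higher and Acss2 lower (-1.09 ± 0.346 SE, FDR = 0.0357), the latter not without contralateral replicate 1 (-0.90, FDR = 0.118).

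Among 7 tested of 10 oxysterol and bile acid enzymes, 3 were called higher and none lower, beside 16.6% of all genes called, with a median log2 fold change of 0.80. They were Cyp7b1 and, besides it, Hsd3b7, a dehydrogenase of bile acid synthesis that acts after 7α-hydroxylation, and Cyp8b1, the sterol 12α-hydroxylase. Hsd3b7, the most abundant of the list by TPM, was at 29.4 ± 3.80 CPM (SD, n = 3) against 17.1 ± 1.87 (SD, n = 6), a log2 fold change of 0.80 ± 0.105 (SE, FDR = 4.0e-05). Cyp8b1 was low, at 1.29 ± 0.107 against 0.531 ± 0.214 CPM, a log2 fold change of 1.31 ± 0.291 (SE, FDR = 0.0034). The same 3 genes were called higher against the contralateral knees. Cyp7a1, Cyp46a1 and Akr1d1 did not pass the filter on low counts in the fit against naive.

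The 12 oxysterol receptors and binding proteins had 3 called higher and 1 lower, beside 16.6% of all genes called, with a median of 0.12. Beside Rora the higher ones were the oxysterol-binding protein homologues Osbpl5 (0.95 ± 0.106 SE, FDR = 7.7e-06) and Osbpl3 (0.70 ± 0.0958 SE, FDR = 5.8e-05). Osbpl8, the most abundant by TPM, did not pass the test (-0.03, FDR = 0.751). Osbpl5 and Osbpl3 were also the 2 of these 12 whose injury effect differed between day 7 and day 1 in edgeR, with or without contralateral replicate 1, beside 3.77% of all genes called in that comparison.

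Of 8 tested cholesterol efflux and LXR target genes, 3 were called higher, beside 16.6% of all genes called. These were Apoe, the apolipoprotein and most abundant of the list by TPM (331 ± 39.5 against 186 ± 23.6 CPM, log2 fold change 0.85 ± 0.129 SE, FDR = 1.5e-04), Abca1, the cholesterol exporter (0.63 ± 0.0784 SE, FDR = 2.2e-05), and Pltp, the phospholipid transfer protein (0.93 ± 0.167 SE, FDR = 6.6e-04). The list's median was 0.08, and only Apoe was called against the contralateral knees, joined by Pltp (0.94, FDR = 0.0070) without contralateral replicate 1. Among 13 genes of cholesterol uptake, storage and transport, Lrp1, a lipoprotein receptor and the most abundant by TPM (1.00 ± 0.210 SE, FDR = 0.0023), and Lipa, the lysosomal lipase (0.59 ± 0.102 SE, FDR = 4.8e-04), were called higher. These 2 of 13 are close to the 16.6% of all genes called and are not a result about the list. Lipa lay just past the fold limit and was not called with the size factors of DESeq2 (1 call in the list). The list's median was 0.17.

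Of 4 matrix-degrading enzymes linked to the CH25H axis, Adamts4 and Mmp13 were called higher against naive, beside 16.6% of all genes called. Adamts4, an aggrecanase, had 29.0 to 35.8 CPM after injury and 1.48 to 9.31 CPM in naive libraries, a log2 fold change of 2.55 ± 0.467 (SE, FDR = 7.7e-04). Mmp13, the collagenase and the most abundant of the list by TPM, had a log2 fold change of 0.88 ± 0.222 (SE, FDR = 0.0077), and 0.12 (FDR = 0.808) against the contralateral knees. Mmp3 was at 29.6 to 36.7 CPM against 1.98 to 27.2 (2.002 ± 0.818 SE, FDR = 0.0779), and was called against the contralateral knees (3.21 ± 1.03 SE, FDR = 0.0386), but not without contralateral replicate 1 (3.36, FDR = 0.0794). Adamts5, the other aggrecanase of the list, did not pass the test, at 68.0 ± 3.85 CPM (SD, n = 3) after injury and 65.8 ± 11.1 (SD, n = 6) in naive libraries (0.06 ± 0.128 SE, FDR = 0.734), nor did it against the contralateral knees (-0.01, FDR = 0.973).

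**Figure D3:**
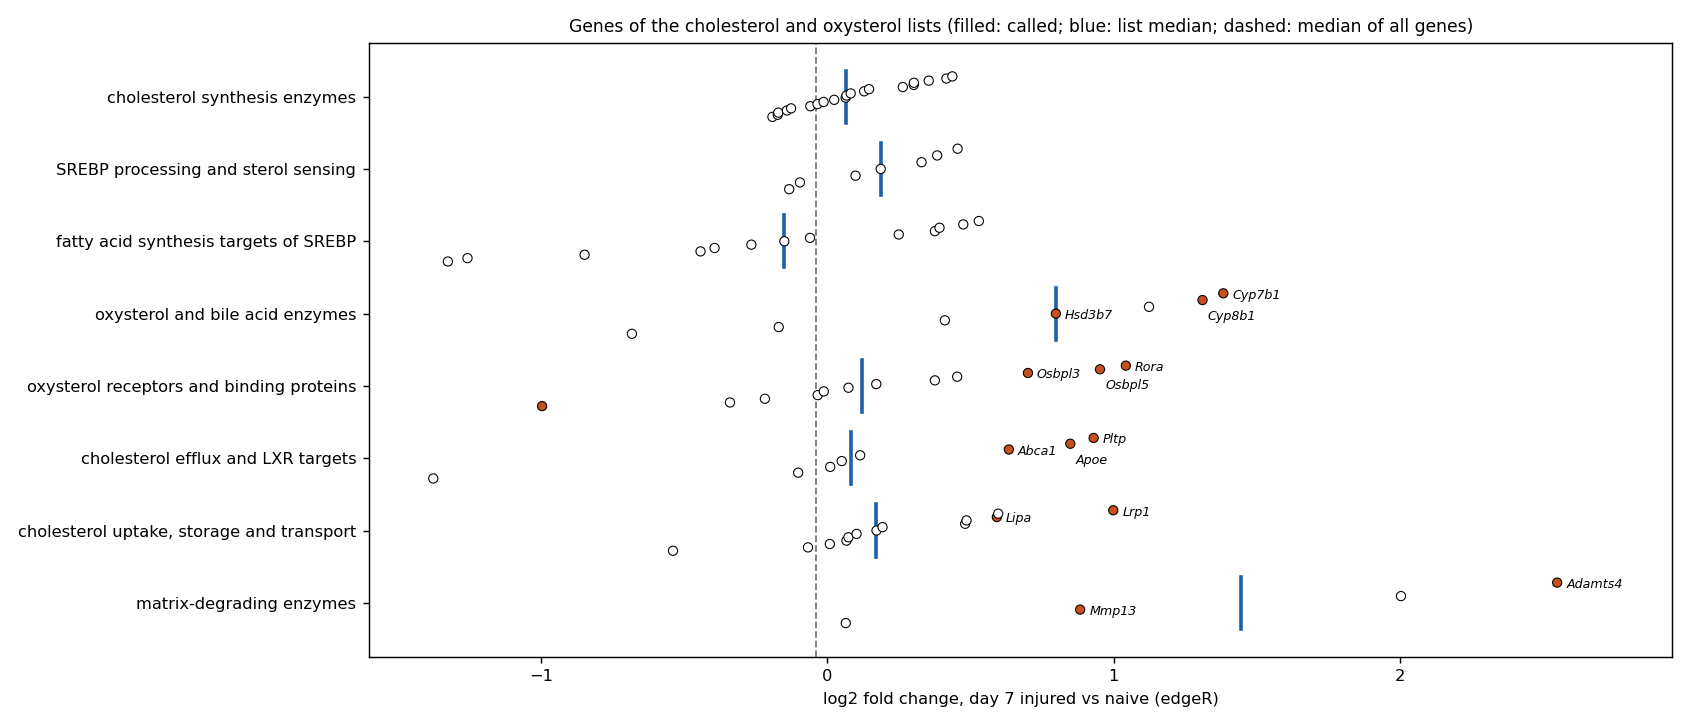
Log2 fold change at day 7, injured against naive, of every tested gene in 8 lists of the cholesterol and oxysterol pathways, with calls filled and higher calls named, list medians as blue bars and the median of all genes as a dashed line. Calls lie in the oxysterol, efflux, uptake and matrix lists, and none lies in the synthesis, SREBP or fatty acid lists.

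The sign of these medians depended on the scaling. With library totals alone, 21.8% of calls were higher in place of 63.1%. The list medians then became -0.25 for synthesis enzymes, -0.13 for SREBP processing, -0.19 for receptors, -0.24 for efflux and -0.15 for uptake, and remained 0.48 for oxysterol enzymes and 1.11 for matrix enzymes. The median of the 8 genes went from 0.28 to -0.04. Rora was still called (0.74, FDR = 0.0064) and Cyp7b1 was not (1.05, FDR = 0.0596). The chondrocyte marker median went from 0.32 to 0.01, and that of fibroblast markers from 1.14 to 0.82.

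Markers of some other cell types also differed in the day 7 injured group, in both directions. The counts below are to be read beside the 16.6% of all genes called, 2207 higher and 1291 lower of 21129. Of 10 markers of synovial and connective tissue fibroblasts 7 were called higher, and their sum was 1585, 1804 and 1947 CPM after injury against 553 ± 71.0 (SD, n = 6) in naive libraries. The most abundant of them was Col14a1 and none was at 0 in any library. Of 14 chondrocyte markers 4 were called higher (Sox9, Acan, Comp and Col11a1) and 1 lower (Chad), with sums of 8809, 10292 and 10701 CPM. Of 10 adipocyte markers 5 were called lower, the most abundant being Cfd, and of 9 erythroid markers, led by Hbb-bs, 5 were lower, with sums of 27599, 23492 and 16761 CPM. None of 12 macrophage markers was called, led by Lyz2, with sums of 2921, 2643 and 2372 CPM after injury against 2662 ± 309 (SD, n = 6) in naive libraries. Of 10 neutrophil markers, led by Ngp, 2 were lower, and of 10 skeletal muscle markers, led by Myh4, 1 was lower, shares close to that of all genes and no result about these lists. Osteoblast and osteocyte markers, led by Ibsp, had 1 higher and 2 lower of 10. The part of these cells in the levels of Rora, Cyp7b1 and Hmgcs1 was not tested, and in bulk tissue more cells of a type and more RNA in each cell cannot be told apart.

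**Figure D4:**
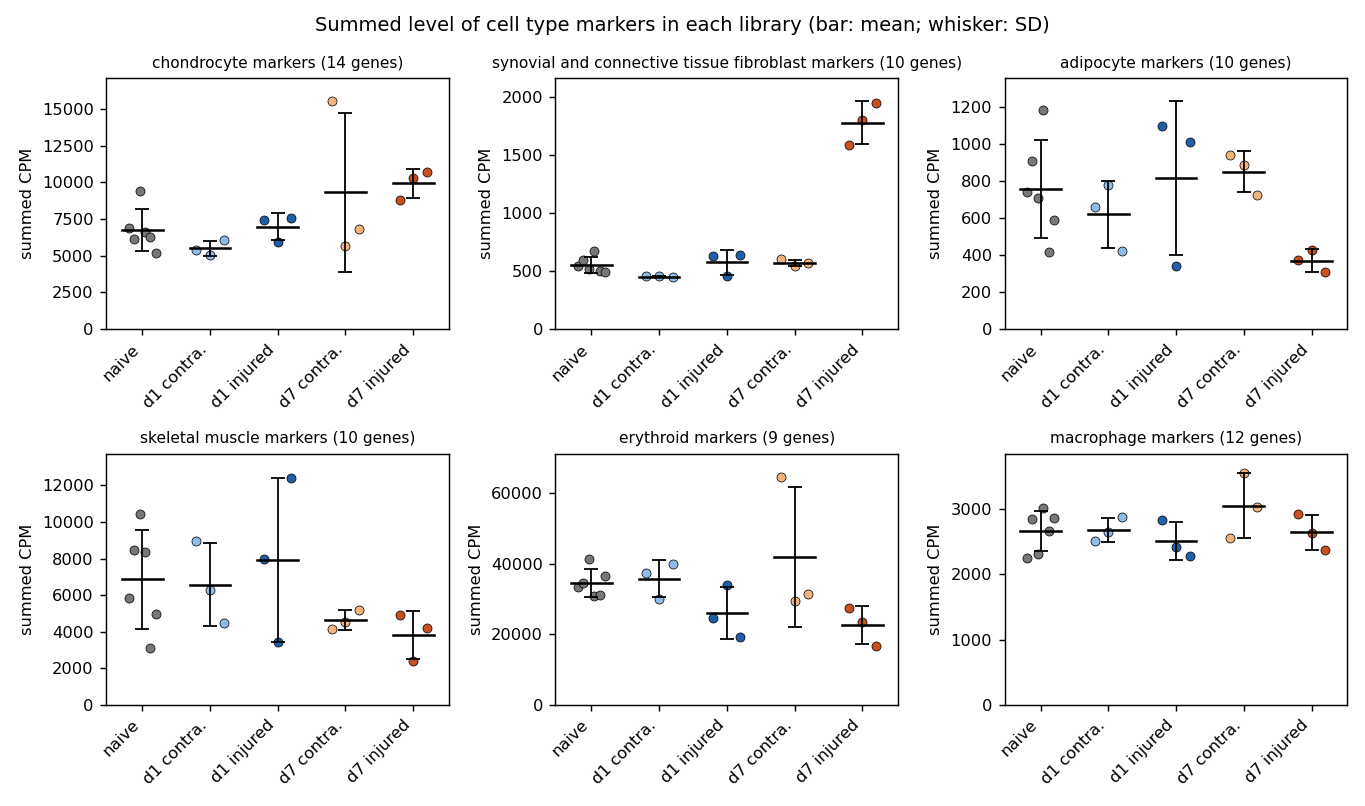
Summed CPM of markers of 6 cell types in every library, on axes that start at 0, with bars for group means and whiskers for SD. The fibroblast sums of the 3 day 7 injured libraries, from 1585 to 1947 CPM, are above all others, the adipocyte sums are low in the same libraries, and day 7 contralateral replicate 1 is highest for chondrocyte and erythroid markers.

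**Figure D5:**
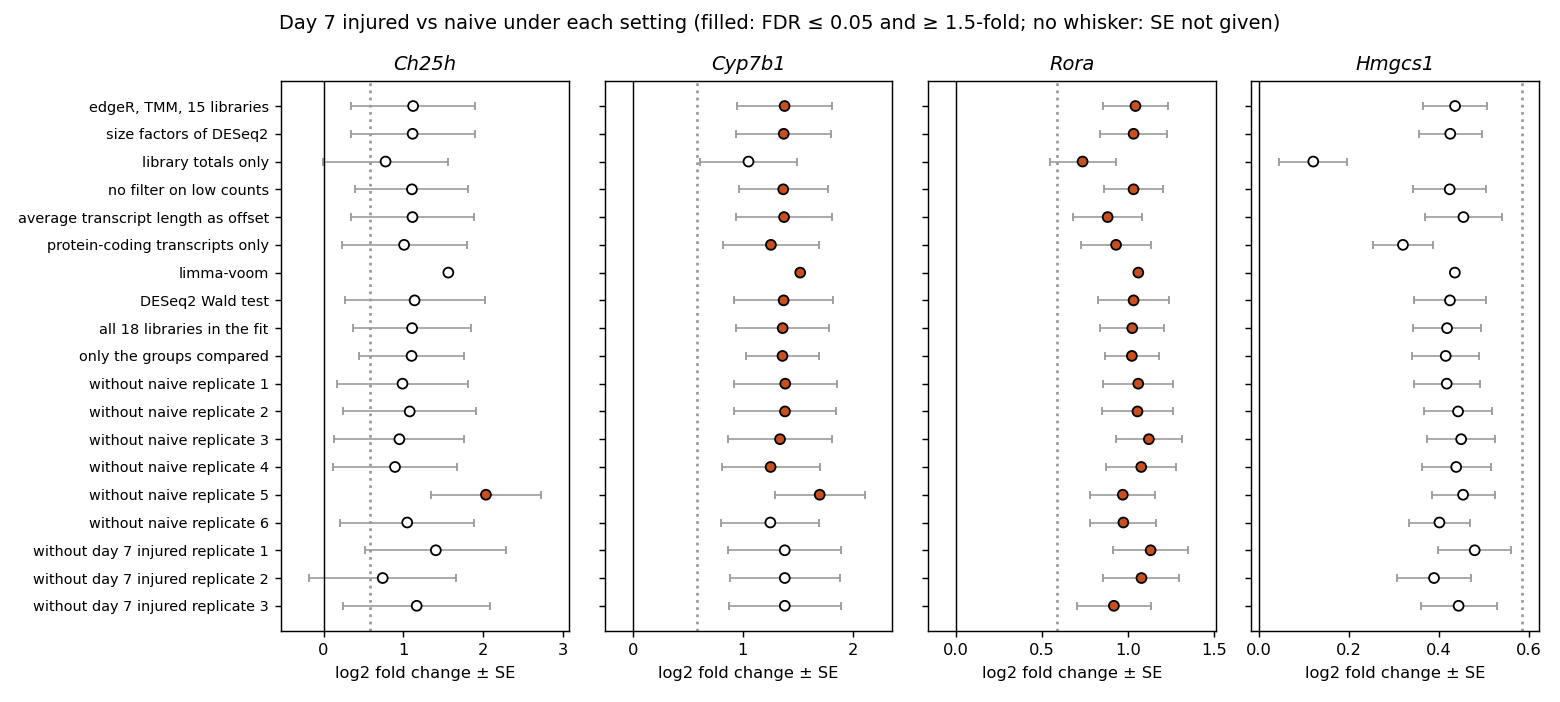
Log2 fold change at day 7, injured against naive, of Ch25h, Cyp7b1, Rora and Hmgcs1 under each normalization, filter, test and set of libraries, with whiskers for the SE and filled points for genes past both limits (FDR 0.05 and 1.5-fold). Rora is called in every setting drawn, Cyp7b1 in all but 5, Ch25h only without naive replicate 5, and Hmgcs1 in none.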

How the data were processed

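RNA was extracted from pooled femoral condyle cartilage caps, and stranded total RNA libraries were made after ribosomal depletion. The authors estimated transcript abundance with kallisto, and the deposited files hold, for each of 137436 transcripts, an estimated count and a TPM value (transcripts scaled to 1e6 per library). The labels name a human build (GRCh38), but the transcript identifiers are mouse and the study's methods give GRCm38. Estimated counts were summed to genes with GENCODE M21, which matched 98.3% of transcripts, and rounded to whole numbers.

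Genes were filtered with filterByExpr, normalised by TMM and tested with the quasi-likelihood test of edgeR 4.0.16 in R 4.3.3, with Benjamini-Hochberg adjustment over all genes (FDR). The day 7 contralateral libraries entered a fit (of all 18) only where that group was compared, and 15 libraries were fitted otherwise. Alternatives used limma 3.58.1, DESeq2 1.42.0, other scalings, filters and limits, and left out each library in turn. For genes of the lists, leaving out day 7 contralateral replicate 1 was chosen after seeing the data. The tests were tried on simulated counts with known changes. Genes of the lists were named where called at day 7, or as the most abundant by TPM; some genes of the lists enter the counts but are not reported here by name. The 8 genes, the lists and the tests were chosen with earlier results of these data known. Groups came from the labels. By its methods, the study removed an ACL mRNA sample with a low mapping rate from its own analysis. The methods do not say which sample that was, and all 18 libraries were used here. Totals of 16074762 to 41794005 estimated counts set the precision.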

Additional observations from a re-analysis of the deposited data

Results flagged for a closer look

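Of 24 sets of 6 naive values examined, 4 held a value far from the others by Dixon's test, where chance gives about 5%. By the study's methods the 6 naive libraries are not independent pools, since knees of the same mice are in different libraries. Naive replicate 5 was far above the other 5 naive libraries for Ch25h, at 2.67 CPM with a gap of 0.804 of the range, and for Cyp7b1, at 1.79 CPM with a gap of 0.673. The limit for 6 values is 0.625. Insig1 stood out in naive replicate 4 at 42.8 CPM, with a gap of 0.628, and the summed matrix-degrading enzymes in naive replicate 6 at 528.5 CPM, with a gap of 0.646.

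The injury effect against the contralateral knee differed between day 7 and day 1 for Osbpl5, by 0.71 on the log2 scale (edgeR interaction, FDR = 0.0426), and for Osbpl3, by 0.65 (FDR = 0.0359). Both code for oxysterol-binding protein homologues.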

How the results depend on the processing

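No direction was reversed among called values. Against naive at day 7, 2 of the 8 genes were called, and 1 (Rora) at an FDR of 0.01 or with library totals alone, with a range of 1 to 3 when each library was left out. Against day 7 contralateral knees 2 were called, and 1 at an FDR of 0.01, with a range of 1 to 2. Between the days after injury 1 was called, 2 with no fold limit and 0 at an FDR of 0.01, with a range of 0 to 1. For the difference between injury effects 0 were called, 2 by DESeq2, with a range of 0 to 1, the 1 being Rora without day 1 injured replicate 3 (1.23, FDR = 0.0441). Without day 1 injured replicate 2, Cyp7b1 was called between the days (1.70, FDR = 0.0457), and with library totals alone Rora was not (0.40, FDR = 0.146), whereas Insig1 was called lower (-0.62, FDR = 3.8e-04). Of the counts of called members among the 8 genes, leave-one-out fits aside, 79 stayed within 1.5 times and 6 moved. Over all genes, calls against naive were 3498, 6291 with no fold limit and 5824 with library totals. Between the days after injury they were 3257, and 6835 with library totals, 5160 with no fold limit, 1895 at an FDR of 0.01 and 2075 with protein-coding transcripts alone. For the difference between effects they were 802, and 344 at an FDR of 0.01, 346 with library totals and 489 with transcript length as offset, and 465, 496 and 402 without day 1 contralateral replicate 3, day 1 injured replicate 1 and day 7 injured replicate 3. With library totals the share of calls that were higher went from 74.3% to 52.4% against contralateral knees, from 58.6% to 11.6% between the days and from 93.5% to 72.8% for the difference between effects. No paired analysis was made, because the labels give no replicate numbers and do not say which libraries share mice. By its methods, the study's own limma-voom test took shared mouse pools into account, whereas the tests here did not. Ch25h and Cyp7b1, with as few as 3 and 8 estimated counts in a library, are limited by depth.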
